A study of Rattus norvegicus with 6 samples.

Results

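Actin is the most abundant protein of the cytoskeleton, and 53 genes that build, cap, bundle, anchor and take apart its filaments were followed here in primary rat microglia treated with lipopolysaccharide (LPS), with or without siponimod. The genes were listed by name as well-known parts of the actin machinery, by a rule that uses no measured value, although earlier results of these data were known when the list was drawn up. Of the 53 names, 50 were found among the 23139 genes of the deposited tables, and 49 passed the filter on low counts that left 11977 genes for testing. Tmsb4x, Tmsb10 and Myl12b were not found under these names and were not analysed as members. Of 2 loci listed as Tmsb10_1 and Tmsb10_2, the first is described below outside the members. Tmsb10_2 had at most 1 count in any library and was not tested. Vil1 (villin, of intestinal microvilli) had 2, 0 and 0 counts under LPS and 0, 0 and 1 under LPS/siponimod, and was not tested.

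Microglia are the resident macrophages of the brain, and they use actin to ruffle, migrate and engulf. Free actin monomers, held by small binding proteins, are added to the growing ends of filaments. The Arp2/3 complex starts branches when it is switched on by proteins of the WASP and WAVE families, while formins and the Ena/VASP proteins extend unbranched filaments. Capping proteins stop growth, cofilin and its partners dismantle old filaments, and bundling proteins, myosin and membrane linkers tie the filaments into spikes, contractile fibres and adhesions.

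Cells came from cortices of Wistar rats at postnatal day 1, were shaken off mixed cultures and were purified with magnetic beads against CD11b/c. Both groups received 100 ng/mL of LPS, a cell wall molecule of bacteria that triggers an inflammatory response in microglia. In the LPS group it was combined with the solvent DMSO, and in the LPS/siponimod group with 50 µM siponimod, a modulator of sphingosine-1-phosphate receptors used against multiple sclerosis. Each group held 3 libraries of mRNA, described as biological replicates. Unstimulated cells and cells with siponimod alone are not among these 6 libraries, so each value compares siponimod with its solvent in LPS-treated cells. Cultured newborn cells of this kind had been kept in serum-containing medium, and the methods name more than 1 culture time, without stating which of them applies to these libraries.

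Total counts per library were 39484979, 38301365 and 38080379 under LPS and 46643859, 43336006 and 38857441 under LPS/siponimod. The actin genes took 4.19%, 5.23% and 4.78% of all counts under LPS and 2.16%, 3.00% and 2.33% under LPS/siponimod. At this depth a single count is worth at most 0.027 normalized counts (CPM, counts scaled to library size), and counting error is small for nearly every member. Replicates of a group held different values, and the correlation of the log CPM of the members across genes was 0.978 to 0.991 within LPS and 0.939 to 0.984 within LPS/siponimod. Exact permutation of 3 against 3 libraries gives no p below 0.1 for any gene, so the adjusted p-values below come from edgeR's quasi-likelihood test, which shares the spread across all genes. These are bulk libraries, in which fewer cells of a type and less RNA per cell cannot be told apart.

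The microglial label was checked against marker genes. Summed over 8 microglial markers, levels were 6892, 5923 and 4016 CPM with LPS and 3138, 3978 and 2487 CPM with LPS/siponimod, with Csf1r (the receptor for colony-stimulating factor) giving the most reads over all 6 libraries. Of these 8 genes, 3 were downregulated without the block, Aif1 (Iba1), Itgam (CD11b) and Cx3cr1, and with the replicate number as a block Csf1r (log2 fold change, FC, -1.33, adjusted p = 0.0375) and the purinergic receptor gene P2ry12 (log2 FC -3.36, adjusted p = 0.0226) were called as well. Tmem119 (log2 FC -0.62), the lysosomal glycoprotein gene Cd68 (0.00) and Ptprc (CD45, -0.02) passed neither fit. Astrocyte markers (6 genes, Slc1a3 with the most reads over all libraries) summed to 42.5, 21.0 and 21.6 CPM with LPS and 27.5, 26.8 and 57.6 CPM with LPS/siponimod. Fibroblast and mural cell markers (8 genes) summed to 6.26, 5.16 and 4.52 CPM with LPS and 12.2, 5.06 and 9.16 CPM with LPS/siponimod, and Acta2, the smooth muscle actin that defines mural cells, had at most 2 counts in any library. Within that list Col1a1 had the most reads in each LPS library. It was lower with siponimod without overlap, at 113, 115 and 89 against 62, 61 and 76 counts, but did not pass (quasi-likelihood adjusted p = 0.0526). By contrast, Dcn (decorin) rose from 3, 0 and 4 counts to 456, 49 and 178 counts (quasi-likelihood adjusted p = 0.0155), and no other gene of the list was called. The libraries therefore carried microglial transcripts at levels far above those of the other lists.

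The replicates numbered 3 stood apart by traces of other brain cells. Olig1, a transcription factor of the oligodendrocyte lineage, had 1, 5 and 515 counts under LPS and 2, 3 and 17 under LPS/siponimod, and the 7 oligodendrocyte lineage markers summed to 5.34, 5.37 and 36.0 CPM with LPS and 11.4, 10.3 and 22.6 CPM with LPS/siponimod. Neuronal markers (5 genes, Tubb3 with the most reads over all libraries) summed to 1.65, 1.04 and 11.2 CPM with LPS and 6.39, 9.18 and 16.8 CPM with LPS/siponimod, and Rbfox3, which defines mature neurons, reached at most 11 counts. Olig1 gave the most reads of the lineage list in LPS replicate 3, at 13.8 CPM. In that list Mbp (myelin basic protein) rose from 149, 161 and 84 counts to 470, 397 and 652 counts (log2 FC 1.74, quasi-likelihood adjusted p = 0.0172). Among the neuronal markers Snap25, a gene of vesicle release, rose from 0, 1 and 1 counts to 94, 153 and 81 counts (quasi-likelihood adjusted p = 0.00539). Endothelial markers (3 listed of 4, Cdh5 with the most reads over all libraries) summed to 154, 201 and 81.4 CPM with LPS and 36.0, 77.8 and 24.2 CPM with LPS/siponimod, with no count for the defining receptor Kdr in any library. Proliferation genes (5 genes, Mki67 with the most reads over all libraries) summed to 4.88, 15.3 and 31.3 CPM with LPS and 4.99, 5.20 and 8.89 CPM with LPS/siponimod. The proliferation sums overlapped between the groups. With the replicate block, Top2a (log2 FC -2.91, adjusted p = 0.00614) and Rrm2 (-1.49, adjusted p = 0.0449) of the proliferation list and Pecam1 (-2.40, adjusted p = 0.00966) and Cdh5 (-1.48, adjusted p = 0.0142) of the endothelial list were called lower, and Tubb3 (1.59, adjusted p = 0.0316) was called higher. The microglial and endothelial sums and Col1a1 were lower, and Dcn, Mbp and Snap25 higher, in every LPS/siponimod library than in any LPS library. Their part in the actin results was not tested.

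Siponimod was accompanied by lower levels of many actin genes. Of the 49 members tested, 22 were downregulated DEGs (44.9%) and 3 were upregulated (6.12%), a DEG being a gene that reached both an adjusted p of 0.05 or less and a 1.5-fold change. Among all 11977 genes tested, 11.7% were downregulated and 13.6% were upregulated. The median log2 FC of the members was -0.56, against -0.02 for all genes, and 12 of the 22 fell at least 2-fold. In 34 members every LPS/siponimod library lay below every LPS library and in 5 every library lay above, where 24% and 25.3% of all genes did so. The 24 members that were not DEGs include 10 whose groups overlapped.

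The number of members called depended on the library set. Without LPS replicate 3, the library with the most oligodendrocyte lineage counts, 18 members were downregulated and 3 upregulated. Without the replicates 3 of both groups, 4 were downregulated and 3 upregulated by the quasi-likelihood test (16 and 3 by edgeR's likelihood ratio test). Without LPS replicate 1 the test called 15 lower and 2 higher, without LPS replicate 2 it called 2 and 0, and without LPS/siponimod replicates 1, 2 and 3 in turn it called 2 and 0, 26 and 2, and 4 and 2. Without the replicates 1 of both groups no member passed the quasi-likelihood test (24 lower at an unadjusted p under 0.05, 13 lower by the likelihood ratio test), nor did any other gene. Among all genes, 3036 passed with all 6 libraries (1403 lower). Without LPS replicates 1, 2 and 3 in turn, 1743, 651 and 3713 genes passed (644, 182 and 1772 lower). Without LPS/siponimod replicates 1, 2 and 3 in turn, 783, 2951 and 1035 passed (191, 1462 and 273 lower). Without the replicates 3 of both groups 2318 passed (983 lower). The count over all genes thus rose without LPS replicate 3, while that of the downregulated members fell. All 22 kept a negative and all 3 a positive log2 FC in each of the 19 alternatives. The groups did not overlap in any of these genes, so leaving out libraries could hardly change their signs. With the replicate number as a block, 24 members were downregulated and 3 upregulated (all genes 16.4% and 17.7%), Was and Coro1a being added.

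**Figure D1:**
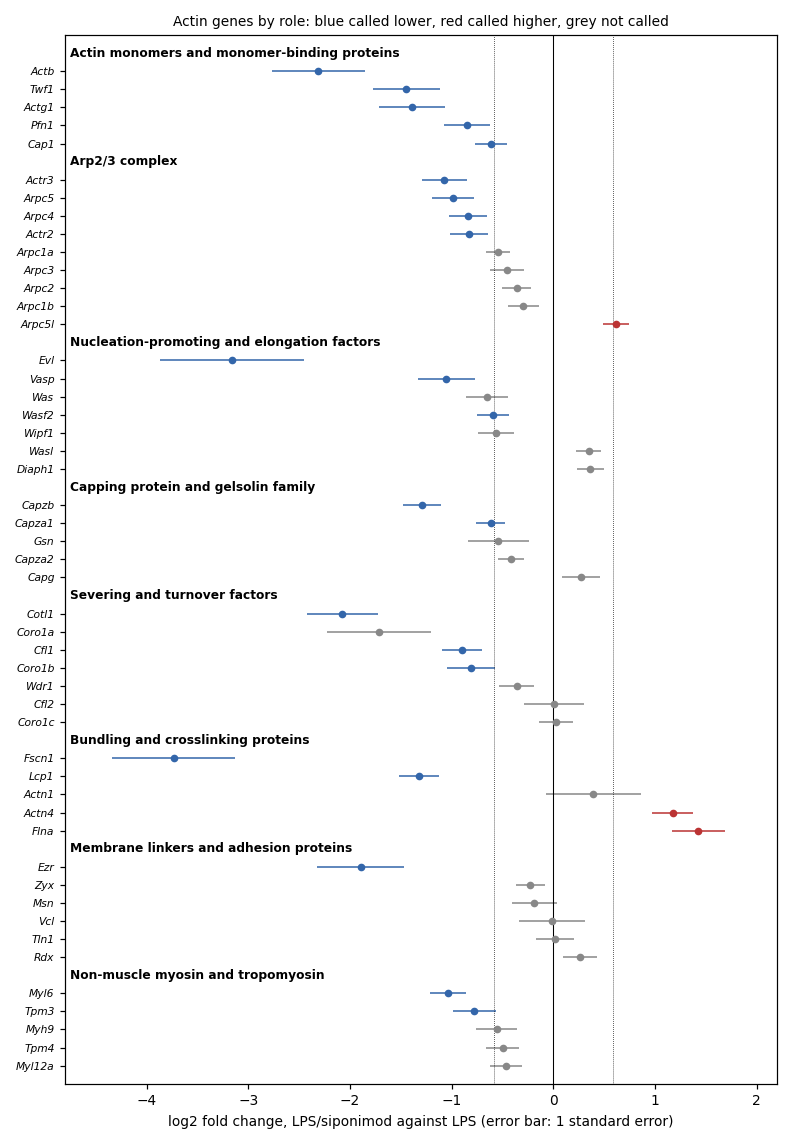
Log2 fold change of the 49 tested actin genes (x axis, LPS/siponimod against LPS, bars of 1 standard error), grouped by role on the y axis, with dotted lines at a fold change of 1.5 either way. Blue points are the 22 downregulated DEGs, red points the 3 upregulated DEGs and grey points the 24 that were not DEGs, and most points lie left of 0.

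The actin genes themselves showed the deepest loss of reads in CPM, although other members, such as Fscn1 and Evl, fell by more in fold change. Actb, the cytoplasmic beta-actin and the member with the most reads, had 11779, 14421 and 10840 CPM with LPS and 1454, 4168 and 1839 CPM with LPS/siponimod. The groups were far apart, the highest LPS/siponimod library staying well below the lowest LPS library. Actb was 4.96-fold lower with siponimod (log2 FC -2.31 with a standard error, SE, of 0.46, edgeR quasi-likelihood adjusted p = 0.0174). Actg1, which encodes the nearly identical gamma-actin, had 3680, 5065 and 4683 CPM with LPS and 1304, 2469 and 1339 CPM with LPS/siponimod, a 2.63-fold drop (log2 FC -1.39, SE 0.32, adjusted p = 0.0262 by the same test). Its groups did not overlap either, and in both genes LPS/siponimod replicate 2 was the highest of its group. Together the 2 actins held 34.7% of the summed CPM of the members with LPS and 17.3% with LPS/siponimod, and they made up 52.1% of the drop in that sum. RefSeq lists 11 further loci named as copies of Actb and 13 of Actg1, most of them pseudogenes, and how reads that match several loci were divided is not stated in the sources used here, so both levels are uncertain to that extent.

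The promoter of Actg1 is shown because it was the sole promoter among those of the members with a CArG box, the site bound by serum response factor (SRF), a regulator known for driving actin genes. It is printed 5′ to 3′ from RefSeq (GRCr8, chr10:106120902-106121201, minus strand), from 250 bases before to 50 bases after the gene's start, with the CArG box in capitals, beginning 90 bases before the start.
Actg1 promoter: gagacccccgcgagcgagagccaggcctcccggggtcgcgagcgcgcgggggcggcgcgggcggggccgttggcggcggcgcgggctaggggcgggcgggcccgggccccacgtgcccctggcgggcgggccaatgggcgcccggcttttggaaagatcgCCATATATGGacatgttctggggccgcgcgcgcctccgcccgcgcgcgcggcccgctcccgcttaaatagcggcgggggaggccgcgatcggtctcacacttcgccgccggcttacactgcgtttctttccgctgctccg
The box is a decamer, read on both strands, that occurred in 548 of 33469 rat promoters of the same length (1.64%) and in 1 of 51 promoters of the 47 members that could be matched. Arpc1a, Cap1, Capg, Lcp1, Actn4 and Actb had no entry. A match describes the letters of the window and not a bound site.

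All 5 tested members of the monomer role, both actins with Twf1, Cap1 and Pfn1, were downregulated, with a median log2 FC of -1.39. Twf1 (twinfilin, which sequesters monomers and caps filaments) had 322, 437 and 672 CPM with LPS and 136, 225 and 164 CPM with LPS/siponimod (2.72-fold lower, log2 FC -1.45, quasi-likelihood adjusted p = 0.0247). Its LPS libraries spread widely, but even the lowest of them lay above every LPS/siponimod library. Cap1 (cyclase-associated protein, which recharges monomers with ATP) had 1072, 1219 and 1199 CPM with LPS and 710, 843 and 725 CPM with LPS/siponimod (log2 FC -0.62, quasi-likelihood adjusted p = 0.0345). Pfn1 (profilin, which delivers monomers to growing ends) fell by 0.85 on the log2 scale (quasi-likelihood adjusted p = 0.0359), from 1507, 1800 and 1868 CPM to 838, 1213 and 815 CPM. Neither gene overlapped between the groups. A locus listed as Tmsb10_1, outside the 53 names and chosen after its values were seen, had 245, 170 and 205 CPM with LPS and 286, 201 and 292 CPM with LPS/siponimod, with overlapping groups (log2 FC 0.33, quasi-likelihood adjusted p = 0.276).

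Summed over the tested and listed monomer genes, levels dropped from 20188 ± 2427 CPM to 6081 ± 2467 CPM when siponimod was added (mean ± SD, n = 3 each), 0.301 times the LPS level. This was the lowest ratio of the 8 roles. It rests largely on Actb (mean 12347 CPM with LPS, 2487 with LPS/siponimod) and Actg1 (4476 and 1704 CPM). The other tested genes of the role stood at 0.367 (Twf1), 0.554 (Pfn1) and 0.653 (Cap1) times the LPS level. The severing and turnover factors stood at 0.513, the nucleation-promoting and elongation factors at 0.55, the bundling proteins at 0.60, myosin and tropomyosin at 0.624 and the Arp2/3 complex at 0.633. Capping proteins (0.835) and membrane linkers (0.88) differed least in sum, and those of the linkers overlapped between the groups. The sum over all members was 44621, 52022 and 48976 CPM with LPS and 21711, 29119 and 22051 CPM with LPS/siponimod, a ratio of 0.50. Sums weigh each gene by its reads, without correction for length, and were not tested.

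**Figure D2:**
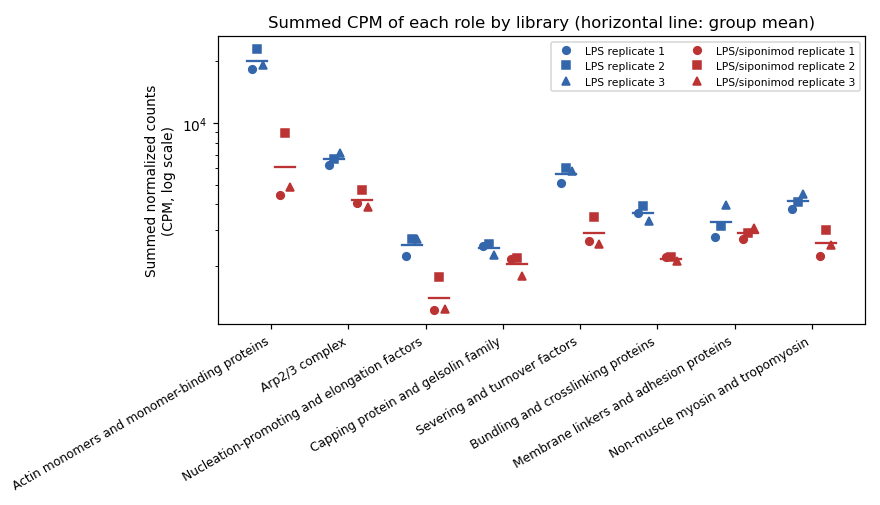
Summed CPM (y axis, log scale) of the members of each of the 8 roles (x axis) in each library, blue for LPS and red for LPS/siponimod, marker shapes for replicates 1 to 3 and horizontal lines for group means. The monomer genes show the widest gap, 20188 against 6081 CPM on average, and the membrane linkers overlap.

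The Arp2/3 complex was lower in 4 of its 9 genes and higher in 1. Actr3 (Arp3, which with Arp2 mimics the first units of a new filament) had 1574, 1456 and 1494 CPM with LPS and 722, 887 and 540 CPM with LPS/siponimod (2.10-fold lower, log2 FC -1.07, SE 0.22, quasi-likelihood adjusted p = 0.0190). The LPS values were close together and all LPS/siponimod values were lower. Actr2 (Arp2) had 1170, 1379 and 1572 CPM with LPS and 694, 854 and 764 CPM with LPS/siponimod (log2 FC -0.83, quasi-likelihood adjusted p = 0.0238). Arpc4, a core subunit, had 397, 421 and 372 CPM against 210, 275 and 181 CPM (log2 FC -0.84, quasi-likelihood adjusted p = 0.0240). Both were again separated between the groups in every library.

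Arpc5 and Arpc5l encode alternative versions of the same subunit, and they moved in opposite directions. Arpc5 had 517, 623 and 683 CPM with LPS and 268, 384 and 267 CPM with LPS/siponimod (1.98-fold lower, log2 FC -0.99, quasi-likelihood adjusted p = 0.0211). Arpc5l had 33.1, 34.6 and 34.6 CPM with LPS and 51.8, 59.4 and 45.8 CPM with LPS/siponimod (1.53-fold higher, log2 FC 0.62, SE 0.13, quasi-likelihood adjusted p = 0.0189). Arpc5l was thus higher in every library with siponimod while Arpc5 was lower, although RefSeq lists 4 loci named as copies of Arpc5l. The log2 ratio of Arpc5 to Arpc5l within a library was 3.96, 4.17 and 4.30 under LPS and 2.37, 2.69 and 2.54 under LPS/siponimod, a difference of -1.61 (exact two-sided permutation test, p = 0.1, the smallest that 3 against 3 allows).

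The other 4 subunit genes had negative log2 FCs without passing both thresholds. Arpc1a, with 134, 155 and 157 CPM against 102, 105 and 99.4 CPM, passed the quasi-likelihood test (adjusted p = 0.0212) but stayed below the 1.5-fold limit at 1.46-fold. Arpc1b, the related subunit prominent in blood cells and over all 6 libraries the member of the complex with the most reads, had 1189, 1231 and 1318 CPM against 979, 1090 and 976 CPM (log2 FC -0.30, quasi-likelihood adjusted p = 0.184). Arpc2 and Arpc3 had log2 FCs of -0.36 and -0.46. In each of these 4 genes the LPS/siponimod libraries nevertheless all lay below the LPS libraries.

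Among the factors that start and extend filaments, the Ena/VASP proteins stood out by size. Evl, an Ena/VASP protein, had 196, 345 and 452 CPM with LPS and 12.7, 73.5 and 25.1 CPM with LPS/siponimod. All 3 LPS/siponimod libraries were far below LPS, yet they differed several-fold among themselves. Evl was 8.93-fold lower (log2 FC -3.16, SE 0.71, quasi-likelihood adjusted p = 0.0243). Vasp, the related protein that protects growing ends from capping, had 1092, 1363 and 1296 CPM with LPS and 472, 852 and 482 CPM with LPS/siponimod (2.08-fold lower, log2 FC -1.05, quasi-likelihood adjusted p = 0.0368). The log2 ratio of Vasp to Evl rose from 2.47, 1.98 and 1.52 in the LPS libraries to 5.21, 3.53 and 4.26 in the LPS/siponimod libraries, without overlap.

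Of the WASP and WAVE branch, Wasf2 (WAVE2, which switches on Arp2/3 at ruffling edges) had 268, 310 and 300 CPM with LPS and 193, 222 and 166 CPM with LPS/siponimod (log2 FC -0.60, quasi-likelihood adjusted p = 0.0347). Was, the WASP protein of blood cells and podosomes, had 128, 156 and 165 CPM against 80.3, 122 and 84.2 CPM and missed the threshold without the block (log2 FC -0.65, quasi-likelihood adjusted p = 0.0572), but passed it with the replicate block (log2 FC -0.67, adjusted p = 0.0296). Its ubiquitous relative Wasl (N-WASP) had 41.3, 33.4 and 34.9 CPM against 49.1, 44.6 and 45.8 CPM (log2 FC 0.35, quasi-likelihood adjusted p = 0.0759). The groups did not overlap in either gene, Was being the lower and Wasl the higher with siponimod. Their log2 ratio was 1.63, 2.23 and 2.24 under LPS and 0.71, 1.45 and 0.88 under LPS/siponimod. Wipf1, which holds WASP stable, had a log2 FC of -0.56 (adjusted p = 0.056), and the formin Diaph1, which extends straight filaments, 0.36 (adjusted p = 0.0819). Neither passed the test.

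**Figure D3:**
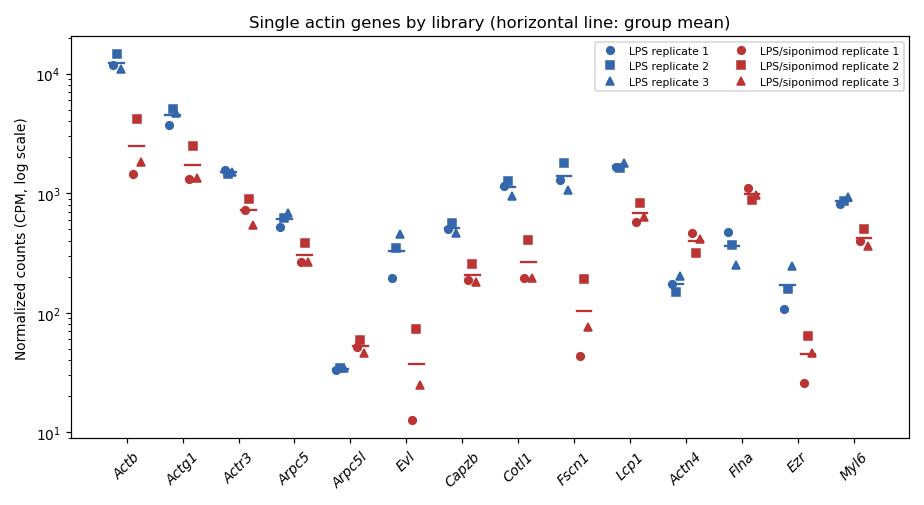
CPM (y axis, log scale) of 14 actin genes (x axis) in each library, blue for LPS and red for LPS/siponimod, with marker shapes for replicates 1 to 3 and horizontal lines for group means. Arpc5l, Actn4 and Flna are higher in every LPS/siponimod library than in any LPS library, and the other genes are lower.

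Capping protein, a dimer of an alpha and a beta chain that closes the growing end, was lower in both kinds of chain. Capzb, the beta chain, had 501, 562 and 467 CPM with LPS and 188, 257 and 180 CPM with LPS/siponimod. Replicates of each group were close, and the LPS values were far above those with siponimod. Capzb was 2.45-fold lower (log2 FC -1.29, SE 0.19, quasi-likelihood adjusted p = 0.00896), the smallest adjusted p of the members. Capza1, an alpha chain, had 465, 497 and 526 CPM against 309, 355 and 305 CPM (log2 FC -0.62, quasi-likelihood adjusted p = 0.0242). The other alpha chain, Capza2, had 335, 349 and 331 CPM against 257, 272 and 229 CPM and did not pass (log2 FC -0.42, quasi-likelihood adjusted p = 0.0532). Capg, a macrophage capping protein and the member of this role with the most reads, gave 1048, 981 and 857 CPM with LPS and 1333, 1185 and 972 CPM with LPS/siponimod, and its groups overlapped (log2 FC 0.27, quasi-likelihood adjusted p = 0.301). Gsn (gelsolin, which severs and caps) overlapped as well (log2 FC -0.54, quasi-likelihood adjusted p = 0.21).

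Of the 7 genes for severing and turnover, 3 were downregulated and none upregulated. Cotl1 (coactosin-like protein, which binds filaments of leukocytes) had 1138, 1269 and 947 CPM with LPS and 194, 406 and 196 CPM with LPS/siponimod. The lowest LPS library lay far above the highest LPS/siponimod library, and the drop was 4.22-fold (log2 FC -2.08, SE 0.35, quasi-likelihood adjusted p = 0.0116). Cfl1 (cofilin, the main severing protein) had 1510, 1840 and 2056 CPM with LPS and 850, 1085 and 959 CPM with LPS/siponimod (1.87-fold lower, log2 FC -0.90, quasi-likelihood adjusted p = 0.0230). Its groups were apart, with the reservation that RefSeq lists 12 loci named as copies of Cfl1. Cfl2, the cofilin of muscle, was at 9.93, 10.1 and 14.7 CPM against 10.0, 8.65 and 16.2 CPM, and did not pass (log2 FC 0.00, quasi-likelihood adjusted p = 0.995).

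The coronins, which guide cofilin and Arp2/3, did not move alike. Coro1a, the coronin of leukocytes, had 437, 694 and 799 CPM with LPS and 86.6, 334 and 169 CPM with LPS/siponimod. The groups did not overlap, but replicates of both spread widely, and the 3.28-fold difference missed the threshold without the block (log2 FC -1.71, quasi-likelihood adjusted p = 0.0507) and passed it with the replicate block (log2 FC -1.88, adjusted p = 0.0121). Coro1b had 1008, 1030 and 829 CPM against 514, 701 and 419 CPM and was downregulated (log2 FC -0.81, quasi-likelihood adjusted p = 0.0452). Coro1c had 204, 221 and 195 CPM against 255, 193 and 182 CPM, with overlapping groups (log2 FC 0.02, quasi-likelihood adjusted p = 0.932). The log2 ratio of Coro1a to Coro1c was 1.10, 1.65 and 2.04 under LPS and -1.56, 0.79 and -0.11 under LPS/siponimod. Wdr1, which helps cofilin to disassemble filaments, did not pass (log2 FC -0.36, quasi-likelihood adjusted p = 0.155).

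The 5 bundling and crosslinking genes split into opposite directions, 2 down and 2 up. Fscn1 (fascin, which packs filaments into the spikes of filopodia) had the lowest fold change of the members, with 1292, 1781 and 1063 CPM with LPS and 43.6, 191 and 76.3 CPM with LPS/siponimod. Its 13.3-fold drop (log2 FC -3.73, SE 0.60, quasi-likelihood adjusted p = 0.0109) separated every library, although the LPS/siponimod libraries differed several-fold among themselves. Lcp1 (L-plastin, the bundling protein of leukocytes) had 1660, 1625 and 1783 CPM with LPS and 577, 823 and 631 CPM with LPS/siponimod. Tight LPS values and no overlap accompanied its 2.50-fold drop (log2 FC -1.32, SE 0.20, quasi-likelihood adjusted p = 0.00932).

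Actn4 and Flna, crosslinkers of looser networks and stress fibres, were upregulated. Actn4 (alpha-actinin-4) rose from 174, 150 and 203 CPM to 461, 313 and 414 CPM (2.26-fold, log2 FC 1.17, SE 0.20, quasi-likelihood adjusted p = 0.0125). Flna (filamin A, which also anchors filaments to membrane receptors) rose from 475, 368 and 251 CPM to 1098, 872 and 969 CPM (2.69-fold, log2 FC 1.43, SE 0.26, quasi-likelihood adjusted p = 0.0147). Both were higher in every LPS/siponimod library than in any LPS library. Actn1, the other alpha-actinin outside muscle, was low at 15.3, 7.94 and 11.9 CPM against 19.0, 6.52 and 20.7 CPM, and its groups overlapped (log2 FC 0.39, quasi-likelihood adjusted p = 0.55).

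The promoter of Fscn1, the member with the lowest fold change, is shown with the palindrome TGACGTCA in capitals, the full site for factors of the CREB family. It lies on chr12:16723685-16723984 of GRCr8 (minus strand, RefSeq, the same window as above), and the palindrome begins 59 bases before the start.
Fscn1 promoter: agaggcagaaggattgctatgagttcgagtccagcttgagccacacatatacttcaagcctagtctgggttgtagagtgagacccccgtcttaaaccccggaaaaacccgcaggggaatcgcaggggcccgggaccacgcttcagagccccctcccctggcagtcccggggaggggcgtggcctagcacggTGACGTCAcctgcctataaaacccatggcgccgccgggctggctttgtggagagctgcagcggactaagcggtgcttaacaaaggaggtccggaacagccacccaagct
This motif was searched after the sequence had been read. It occurred in 612 of 33469 promoters (1.83%) and in 2 of the 51 member promoters, those of Fscn1 and Myl6, which is a description of these windows alone.

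Among the genes that link actin to the membrane and to adhesions, 1 of 6 was downregulated. Ezr (ezrin, which joins filaments to the cell membrane) had 107, 157 and 244 CPM with LPS and 26.1, 64.6 and 46.1 CPM with LPS/siponimod. Despite the spread within LPS, the groups did not overlap and the drop was 3.72-fold (log2 FC -1.90, SE 0.43, quasi-likelihood adjusted p = 0.0245). Its relative Msn (moesin), the linker with the most reads, had 1621, 1635 and 2366 CPM against 1538, 1585 and 1814 CPM, with overlapping groups (log2 FC -0.19, quasi-likelihood adjusted p = 0.543). The third protein of the family, Rdx (radixin), had a log2 FC of 0.26. The log2 ratio of Msn to Ezr rose from 3.92, 3.38 and 3.28 to 5.88, 4.62 and 5.30 without overlap. The focal adhesion genes Tln1 (talin, log2 FC 0.02), Vcl (vinculin, -0.01) and Zyx (zyxin, -0.23) all overlapped between the groups, with quasi-likelihood adjusted p-values from 0.256 (Zyx) to 0.984 (Vcl).

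Of the 5 contractile genes tested, 2 were downregulated. Myl6, the essential light chain of non-muscle myosin, had 814, 864 and 921 CPM with LPS and 400, 505 and 364 CPM with LPS/siponimod (2.05-fold lower, log2 FC -1.04, SE 0.18, quasi-likelihood adjusted p = 0.0125). The replicates were close and the groups well apart, while RefSeq lists 5 loci named as copies of Myl6. Tpm3, a tropomyosin that coats filaments and over all 6 libraries the member of this role with the most reads, had 926, 1077 and 1293 CPM against 539, 753 and 631 CPM (log2 FC -0.78, quasi-likelihood adjusted p = 0.0379). Myh9, the heavy chain of non-muscle myosin IIA, had 877, 1012 and 957 CPM against 512, 788 and 631 CPM and did not pass (log2 FC -0.56, quasi-likelihood adjusted p = 0.0833). Tpm4 (log2 FC -0.50) and the regulatory light chain Myl12a (-0.47) did not pass either. In all 5 the groups did not overlap.

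The downregulated members followed a pattern across libraries that most downregulated genes of the whole series also showed. Within the LPS/siponimod group, all 22 downregulated members were highest in replicate 2, as were 1197 of all 1403 downregulated genes (85.3%). In the pair of libraries numbered 2, 21 of the 22 showed their smallest fall, as did 920 of all downregulated genes (65.6%). The median log2 FC of the members was -0.59, -0.47 and -0.73 in pairs 1, 2 and 3, and 36 of the 38 members with a negative log2 FC were lower in each of the 3 pairs, as were 4239 of the 6138 such genes among all genes tested. Leaving out LPS/siponimod replicate 2 moved the median of the members to -0.70.

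Few of the single calls survived the loss of any library. Lcp1 was the sole member that stayed a DEG in each of the 6 sets of 5 libraries, with a highest adjusted p of 0.0486 (quasi-likelihood test, without LPS/siponimod replicate 1). Fscn1 reached 0.0504 without LPS replicate 2, Capzb 0.0511 and Cotl1 0.0574 without LPS/siponimod replicate 1, and Actb 0.0708 without LPS/siponimod replicate 3. Of the upregulated genes, Actn4 reached 0.0601 and Flna 0.0701 without LPS replicate 2, and Arpc5l 0.0854 without LPS/siponimod replicate 1. When the fold change itself was tested against 1.5 (edgeR's glmTreat), Actb, Capzb, Cotl1, Fscn1 and Lcp1 remained, and no member was higher (2 at an unadjusted p under 0.05).

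Ratios of related genes show how their balance shifted, independent of scaling between libraries. Of 13 pairs of relatives, 11 had ratios that did not overlap between the groups, a count for which no share over unrelated pairs was computed. Coro1a and Msn each stand in more than 1 pair. The smallest p that the design allows is 0.1, and its value after Benjamini-Hochberg adjustment over the 13 pairs was 0.118, so none of these differences could pass a threshold of 0.05. For Actb to Actg1 the log2 ratio of reads was 1.68, 1.51 and 1.21 under LPS and 0.16, 0.76 and 0.46 under LPS/siponimod, a difference of -1.01. The widest differences were those of Vasp to Evl (2.34), Coro1a to Coro1c (-1.89), Msn to Ezr (1.74) and Arpc5 to Arpc5l (-1.61). Ratios of Coro1a to Coro1b and of Tpm3 to Tpm4 overlapped (exact permutation test, p = 0.2 each). The log2 ratio of Arpc1b to Arpc1a was higher with LPS/siponimod by 0.25, without overlap.

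**Figure D4:**
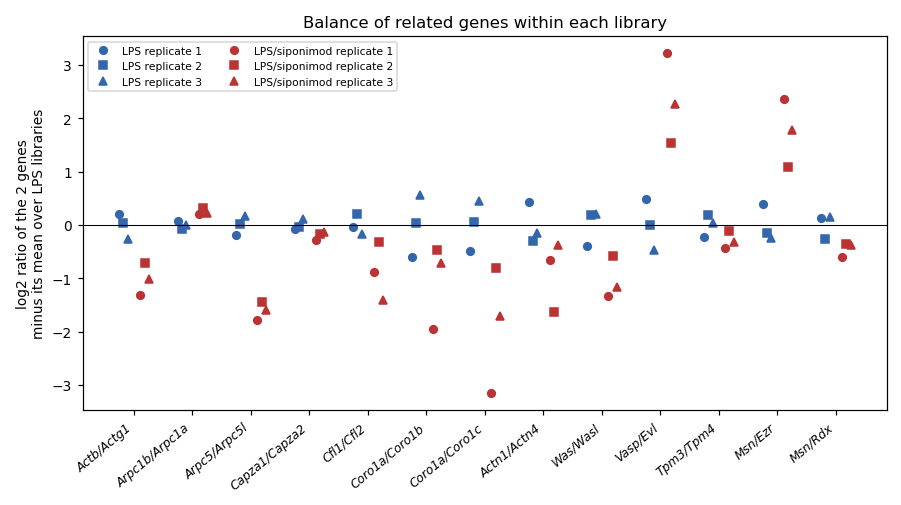
Log2 ratio of 13 pairs of related genes in each library, minus the mean of that ratio over the LPS libraries (y axis), with pairs on the x axis, blue for LPS and red for LPS/siponimod and marker shapes for replicates 1 to 3. The red points lie apart from the blue ones in 11 pairs, highest for Vasp to Evl and lowest for Coro1a to Coro1c.

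Genes that surround the actin machinery were counted in the same way, beside the 11.7% lower and 13.6% higher of all genes. Of 18 further nucleation genes, 3 were downregulated and 1 upregulated (median log2 FC -0.38). Hcls1, the cortactin relative of blood cells, had 1301, 1274 and 1455 CPM with LPS and 596, 792 and 624 CPM with LPS/siponimod (log2 FC -1.003, quasi-likelihood adjusted p = 0.0141). Nckap1l, the subunit of the WAVE complex in blood cells, had 799, 914 and 1163 CPM against 429, 574 and 423 CPM (log2 FC -1.01, quasi-likelihood adjusted p = 0.0217). The formin Fmnl2 rose from 182, 175 and 163 CPM to 458, 389 and 437 CPM (log2 FC 1.30, quasi-likelihood adjusted p = 0.00568). Replicates of Fmnl2 were close in both groups, and Cyfip1 of the WAVE complex was the third gene down.

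SRF and genes of its contractile program gave 1 downregulated and 2 upregulated genes of 9 tested, and the other 7 of the 16 were at low counts. Any link to the motif match in the Actg1 promoter was not tested. Srf itself had 68.2, 82.5 and 71.0 CPM with LPS and 32.4, 45.3 and 36.4 CPM with LPS/siponimod (log2 FC -0.96, quasi-likelihood adjusted p = 0.0119). Its cofactor Mrtfb, which senses free actin, rose from 7.85, 9.55 and 8.39 CPM to 18.8, 15.3 and 19.4 CPM (log2 FC 1.05, quasi-likelihood adjusted p = 0.00994). Cnn3 (calponin-3) rose from 4.02, 2.72 and 5.14 CPM to 153, 45.5 and 86.8 CPM (log2 FC 4.59, quasi-likelihood adjusted p = 0.00655), with wide spread among the LPS/siponimod libraries. All 3 genes were separated between the groups, whereas Mrtfa, the SRF cofactor with more reads, overlapped (log2 FC -0.41, quasi-likelihood adjusted p = 0.356).

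Genes of podosomes, adhesions and phagocytic cups were the neighbouring list with the most DEGs, 10 down and 1 up of 18 tested (55.6% lower, median log2 FC -0.92). Itgam (CD11b), an integrin chain of myeloid cells, had 946, 980 and 1047 CPM with LPS and 512, 566 and 546 CPM with LPS/siponimod (log2 FC -0.87, quasi-likelihood adjusted p = 0.0112). Elmo1, a gene of the engulfment of dead cells, had 188, 200 and 227 CPM against 60.3, 113 and 57.9 CPM (log2 FC -1.41, quasi-likelihood adjusted p = 0.0187). Ilk, a scaffold of adhesions, rose from 53.3, 36.0 and 45.8 CPM to 128, 98.6 and 132 CPM (log2 FC 1.41, quasi-likelihood adjusted p = 0.00815). None of the 3 overlapped between the groups. Aif1, Sh3pxd2a, Itgb2, Pxn, Ptk2b, Vav1, Swap70 and Dbnl were the other 8 that fell. Of 8 common reference genes, which carry no actin function, Hprt1 was the sole DEG (log2 FC -1.44, quasi-likelihood adjusted p = 0.0169), and the median log2 FC was -0.06.

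**Figure D5:**
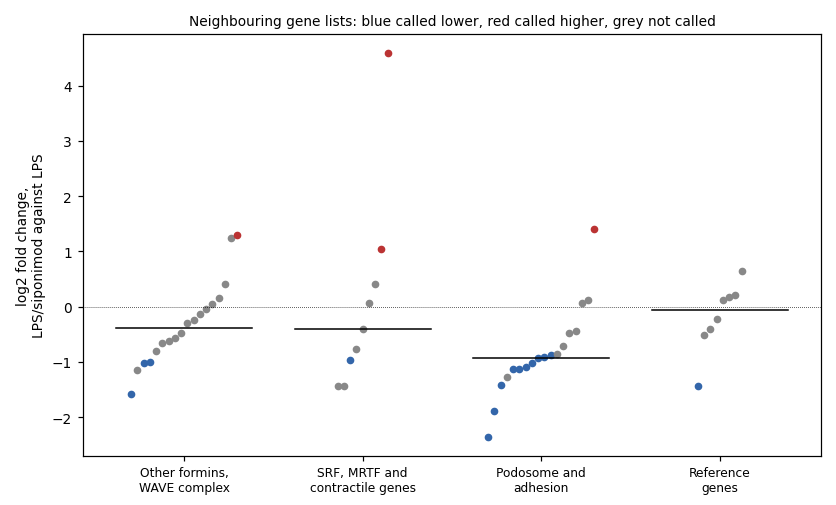
Log2 fold change (y axis, LPS/siponimod against LPS) of each tested gene in 4 neighbouring lists (x axis), with a black line at the median of each list. Blue points are downregulated DEGs, red points upregulated DEGs and grey points did not pass, and the podosome and adhesion list has the lowest median, -0.92, against -0.06 for reference genes.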

How the data were processed

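Per the labels and the study's methods, polyA-selected mRNA libraries were sequenced single-end, reads were converted with bcl2fastq (version 2.20.0.422, from the submitters' processing notes), trimmed and mapped to mRatBN7.2 in the CLC Genomics Workbench, and the authors deposited the raw counts of reads in each gene, 1 table per library. Strand and the sharing of reads between loci are not stated in the sources used here, so values of genes with near-identical copies (21 of the 53 members have loci named as copies in RefSeq) are uncertain. No molecular identifiers are mentioned, so reads are not independent molecules, and 1 nameless row without a value was left out.

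Counts were analysed in R 4.3.3 with edgeR 4.0.16 and limma 3.58.1. Genes were kept by filterByExpr (minimum count 10, minimum total 15), scaled by TMM (factors 0.939 to 1.056) and tested with glmQLFit and glmQLFTest, the condition being the only term and all 6 libraries entering. The Benjamini-Hochberg adjustment ran over all 11977 genes, and DEGs needed an adjusted p of 0.05 or less with a 1.5-fold change or more. The SE of a log2 FC was its size over the square root of F. CPM are TMM-scaled, and logged values within pairs use a prior count of 2. Related genes were compared by the log2 ratio within a library with an exact two-sided permutation test. Of 15 planned pairs, 13 could be computed. The procedure was tested on simulated data, where the quasi-likelihood test missed most 2-fold changes. Far fewer genes were changed there than were called here, which makes the adjusted threshold stricter, so that share does not carry over to these data. With 3 libraries per group, a gene that did not pass is still not shown to be unchanged.

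Members, roles, lists and tests were chosen with earlier results of these data known. Named with values were both actins, in each role up to 4 DEGs with the smallest adjusted p, members whose call or direction changed under an alternative, the member with the most reads, and up to 2 genes per direction of each neighbouring list. Genes named beyond this rule were chosen after their values were seen. Same-numbered libraries deviated together from their group means (correlation over genes 0.42, 0.545 and 0.611, against -0.534 to 0.086 for other numbers). The numbers were therefore used to pair libraries in the replicate block, an alternative to the main fit, and in the differences within pairs. This pairing rests on these values and not on a statement in the labels. Deviations cancel out within a group, so the negative correlations of other numbers follow in part from the positive ones and are no separate evidence. Calls given without mention of the block come from fits without it.

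Alternatives were RLE scaling, DESeq2 1.42.0, limma-voom, the likelihood ratio test, other filters and fold limits, the replicate block and the removal of libraries. Promoters come from RefSeq (GRCr8), another assembly than that used for mapping. P-values measure the spread between these libraries. A further neighbouring list is not reported here.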

Additional observations from a re-analysis of the deposited data

How the results depend on the processing

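All 22 downregulated and all 3 upregulated actin genes kept their direction under each of the 19 alternatives. This is little check on direction, since the groups did not overlap in any of these genes and every alternative used the same libraries. The count of 22 lower stood at 23 with RLE scaling and limma-voom, 24 with DESeq2, the likelihood ratio test and the replicate block, and 16 without a filter on low counts. Against a fold change of 1.5, glmTreat called 5 members lower (17 at an unadjusted p under 0.05), 0 higher and 990 of all genes, and the block combined with the likelihood ratio test called 4679 of all genes against 3036. The replicate block added the calls of Was and Coro1a and changed no other call of a member. Leaving out single libraries gave 2 to 26 members lower, 0 to 3 higher, 651 to 4383 genes in all, and a median log2 FC between -0.70 and -0.52. These ranges include the likelihood ratio test, added after the data were seen, which called 14 members lower and 1918 genes without LPS/siponimod replicate 1. Without replicates 1, 2 and 3 of both groups, quasi-likelihood tests called 0, 6 and 4 members lower (24, 28 and 21 at an unadjusted p under 0.05), and without replicates 1 and 2 they called 0 higher (4 and 3 unadjusted) and 0 and 699 of all genes (3008 of all at an unadjusted p under 0.05 without replicate 1). The likelihood ratio test called 13 members lower, 2 higher and 1397 genes in either direction without replicate 1 of both groups. These sets hold fewer libraries, and other causes were not tested. Members near 0 changed sign without being called. Cfl2 had log2 FCs of -0.034 with limma-voom, -0.0089 without a filter, -0.025 with the replicate block, -0.024 with the block and the likelihood ratio test, -0.011 and -0.10 without replicates 1 and 3 of both groups, and -0.31 to 0.22 without single libraries. Without single libraries, Tln1 ranged from -0.10 to 0.10, Vcl from -0.21 to 0.23, Coro1c from -0.15 to 0.12 and Msn from -0.26 to 0.020. Without replicate 1 of both groups Tln1 stood at -0.086 and Coro1c at -0.16, and without replicate 3 Vcl stood at 0.41. Ratios of related genes kept their direction and p from raw counts with an offset of 0.5, which is no separate check, since scaling cancels within a library. Within pairs the exact sign-flip test cannot go below p = 0.25, which all 13 reached. At this depth counting error limits Vil1 alone, with at most 2 counts.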
